A study of Mus musculus with 6 samples.

Results

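Translation factors are the proteins that start and drive protein synthesis on the ribosome, and their transcripts were measured here in injured mouse kidney in the presence and absence of LIGHT, the product of Tnfsf14 and a relative of tumour necrosis factor. The genes were taken by symbol: every gene of the deposited table whose symbol began with Eif1 to Eif6, Eef1 or Eef2, leaving out Eef1e1. That gave 62 of 13026 genes, and all 62 passed the filter on low values that left 12836 genes to test. They comprised 46 initiation factors, 4 kinases of eIF2, 4 proteins that bind eIF4E, 5 elongation factors and 3 enzymes that modify elongation factors. Another 5 protein-coding genes that fit the rule by name, Eef1a2, Eef1akmt2, Eef1akmt3, Eef1akmt4 and Eif4e1b, were not analysed here.

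The libraries were 3 from LIGHT knockout mice (LIGHT-/-) and 3 from wild type mice (LIGHT+/+). All were whole kidneys of adult males on a C57BL/6 J background, and all had bilateral ischemia for 32 min followed by reperfusion for 24 h. Kidneys without surgery were not analysed here, and what is compared is knockout against wild type once both had been injured. The knockout is described in the labels as LIGHT-/-, with no cell type restriction stated, and the deleted gene, Tnfsf14, was not analysed here, which leaves the genotypes as the labels give them.

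Initiation begins when eIF2, loaded with GTP and the initiator tRNA, joins the small ribosomal subunit together with eIF1, eIF1A, eIF3 and eIF5, and when eIF4F (the cap-binding eIF4E, the scaffold eIF4G and the helicase eIF4A) brings in the mRNA. Stress kinases phosphorylate the alpha subunit of eIF2, which then blocks its own exchange factor eIF2B and lowers protein synthesis at large while a few mRNAs such as that of Atf4 are translated more. During elongation eEF1A delivers aminoacyl-tRNA, the eEF1B complex recharges eEF1A with GTP, and eEF2 moves the ribosome along. These proteins are regulated largely by phosphorylation, which RNA levels do not show.

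Knockout library 3 stood apart from the other 5 libraries, and fold changes that it moved most are given with and without it. Its Pearson correlation with the others over genes, on the log2(FPKM + 1) scale, was 0.934 to 0.956, whereas the highest correlation of each of the other 5 with another library was 0.985 to 0.989. FPKM is a level per transcript length and per library, and it does not give the read depth, which is unknown here. The labels number the libraries but do not say that each is a separate mouse, so p-values measure only the spread between these libraries. Markers of tubular injury (8 of 8 in the table) summed to 6222, 5061 and 1782 FPKM in knockout libraries 1 to 3, against 6001 to 6674 FPKM in wild type. Adipocyte markers (4 of 4) summed to 12.1, 18.8 and 116 FPKM in knockout libraries, against 12.8 to 20.8 FPKM in wild type, with Adipoq, Cfd and Plin1 at 0 in at least 1 library. Neutrophil markers (8 of 10) summed to 47.0, 68.9 and 21.2 FPKM in knockout libraries, against 65.6 to 100.2 FPKM in wild type, and 8 of 8 were lower. Nephron markers (9 of 9) summed to 991, 1194 and 2239 FPKM in knockout libraries, against 1004 to 1300 FPKM in wild type, and all were above 0 in every library. Macrophage markers (8 of 8) summed to 112 to 153 FPKM in knockout libraries and 121 to 229 FPKM in wild type. By log2 fold change, 5 of them were higher in the knockout and 3 lower. B and plasma cell markers (3 of 5) summed to 8.57 to 9.74 FPKM in knockout and 1.06 to 2.25 FPKM in wild type. Both of the 2 tested were higher, and 1 passed an adjusted limma p of 0.05, against 0.117% of all genes. Injury markers were 1 higher and 7 lower, nephron markers 6 higher and 3 lower, and adipocyte markers 4 higher and 0 lower. The part of these differences in the results that follow was not tested. In whole tissue, fewer cells of a type and less RNA per cell cannot be told apart.

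The translation factors differed widely in level, with means over 6 libraries from 1.36 to 986 FPKM. All genes tested ran from 0.50 to 7131 FPKM. The elongation factor genes Eef1a1 and Eef2 were the most abundant of the 62. Eef1a1 (chromosome 9, 78478449 to 78489151 in mm10), which encodes the tRNA carrier eEF1A, averaged 948 ± 85.8 FPKM in knockout and 1023 ± 43.1 FPKM in wild type (SD, n = 3 each) and lay above 99.9% of the genes tested. Eef2 (chromosome 10, 81176631 to 81182498), the translocase, averaged 484 ± 8.86 FPKM in knockout and 475 ± 10.5 FPKM in wild type. At the other end, apart from Eif3j2, lay Eef2k, the kinase that inactivates eEF2, whose mean over 6 libraries was 1.54 FPKM. Within eIF3, the largest initiation factor, subunit levels spread from 19.97 FPKM for Eif3j1 to 106 FPKM for Eif3h as means over 6 libraries, leaving out Eif3j2. The summed level of all 62 genes was 1.27, 1.32 and 1.15% of all FPKM in knockout libraries 1 to 3, against 1.31, 1.28 and 1.35% in wild type libraries 1 to 3. The lowest share was that of knockout library 3, and the groups overlapped.

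**Figure D1:**
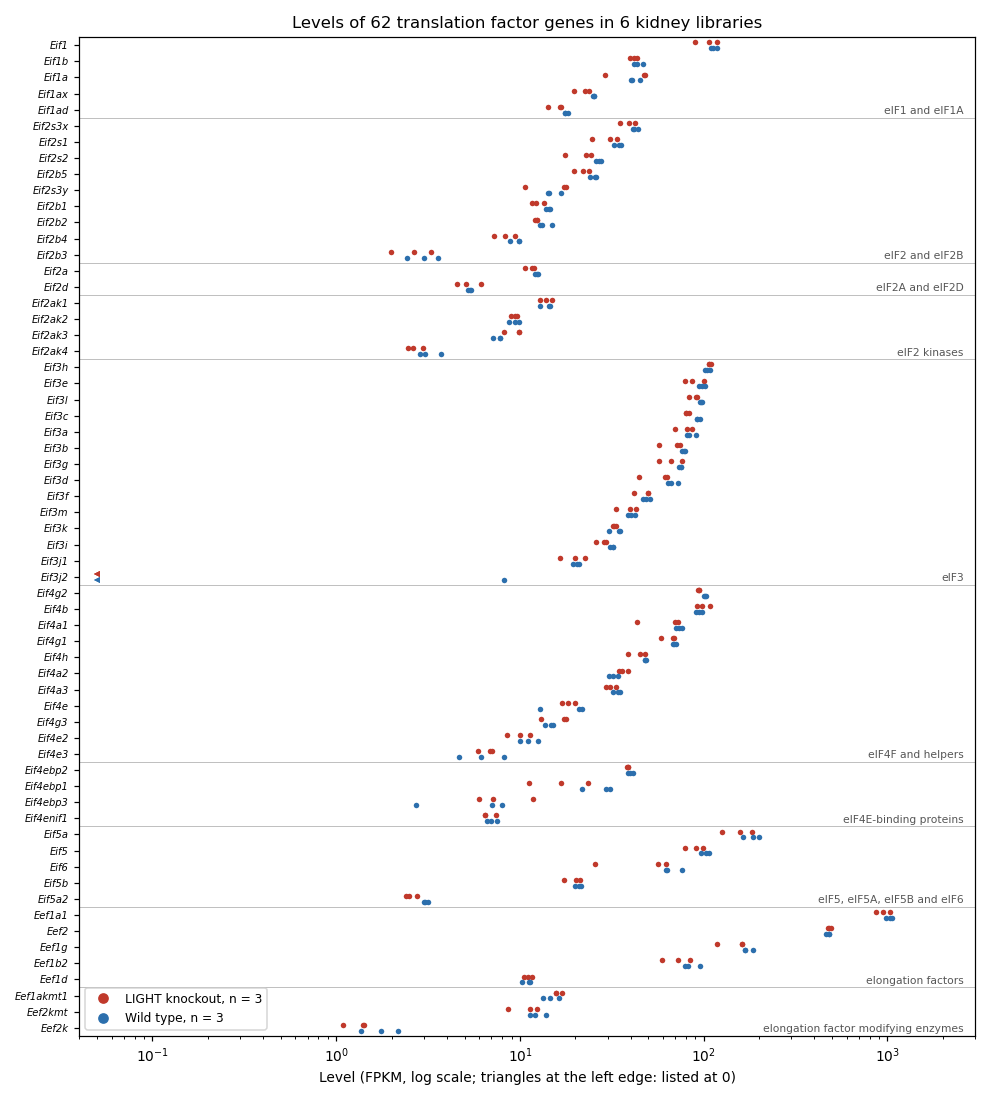
Level of each of the 62 genes in FPKM on a log axis, by complex, with 3 LIGHT knockout libraries (red) above 3 wild type libraries (blue) in each row. Eef1a1 and Eef2 stood highest and Eef2k among the lowest, while Eif3j2 was listed at 0 in 5 of 6 libraries.

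None of the 62 genes passed the test between genotypes, and 51 of them lay lower in the knockout by small amounts. In limma, over all genes, 0 members had an adjusted p under 0.05, against 15 of 12836 genes (0.117%), and the smallest adjusted p of a member was 0.592. At an unadjusted limma p under 0.05 there were 3 lower members (Eif2s2, Eif3c and Eif4ebp1), where 3.74% of all genes were called lower, and 1 higher member (Eif2ak3), where 4.34% were called higher. These were 4 of 62 members in all, against 8.08% of all genes, so single calls were no more frequent here than in the whole table. The direction was less even: 82.3% of members had a log2 fold change below 0, against 52.1% of all genes tested. The lower members include Eif3j2, whose sign was fixed by wild type library 3, the only library where it was above 0. The median log2 fold change of the 62 was -0.12, against -0.01 over all genes. Fold changes here are of knockout over wild type on the log2(FPKM + 1) scale, so those of genes with low levels come out too small.

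Values that did not overlap between genotypes leaned the same way. In 15 members (24.2%) all 3 knockout values lay below all 3 wild type values, against 8.8% of all genes, and in 2 members (3.23%) all 3 lay above, against 7.76%. The 15 were Eif1ax, Eif1ad, Eif2s2, Eif2b1, Eif2b2, Eif2b5, Eif2a, Eif3b, Eif3c, Eif3d, Eif3i, Eif3l, Eif4g2, Eif5a2 and Eef1g, and the 2 were Eif2ak3 and Eif4a2. Members share regulation and are not independent of each other, so these shares are a description. The median level of the members was 30.9 FPKM, against 6.99 FPKM over all genes tested. Shares among genes of like level were not computed.

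Knockout library 3 carried much of the shift. Taken as a median over the 62 genes, deviations from the wild type mean on the log2(FPKM + 1) scale were -0.09, -0.01 and -0.23 in knockout libraries 1 to 3, where the medians over all genes were -0.04, 0.02 and -0.0033. Knockout library 3 had the lowest of the 6 values, ties counted, in 38 of 62 members, or 61.3%, against 30.3% of all genes. Eif3j2, tied at 0, is among the 38. Without it the median log2 fold change of the members was -0.06, against -0.01 over all genes, and 45 of the 62 were lower (72.6%, against 53.6% of all genes). In that fit 0 members passed an adjusted limma p of 0.05, against 0.0865% of all genes. At an unadjusted limma p under 0.05 there were 2, and the matching share of all genes was not computed. Knockout libraries 1 and 2 lay below every wild type library in 15 members (24.2%), against 12.7% of all genes. These were the same 15 genes as above. They lay above every wild type library in 3, against 11.2% of all genes: Eif2ak3, Eif4a2 and Eif1a.

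**Figure D2:**
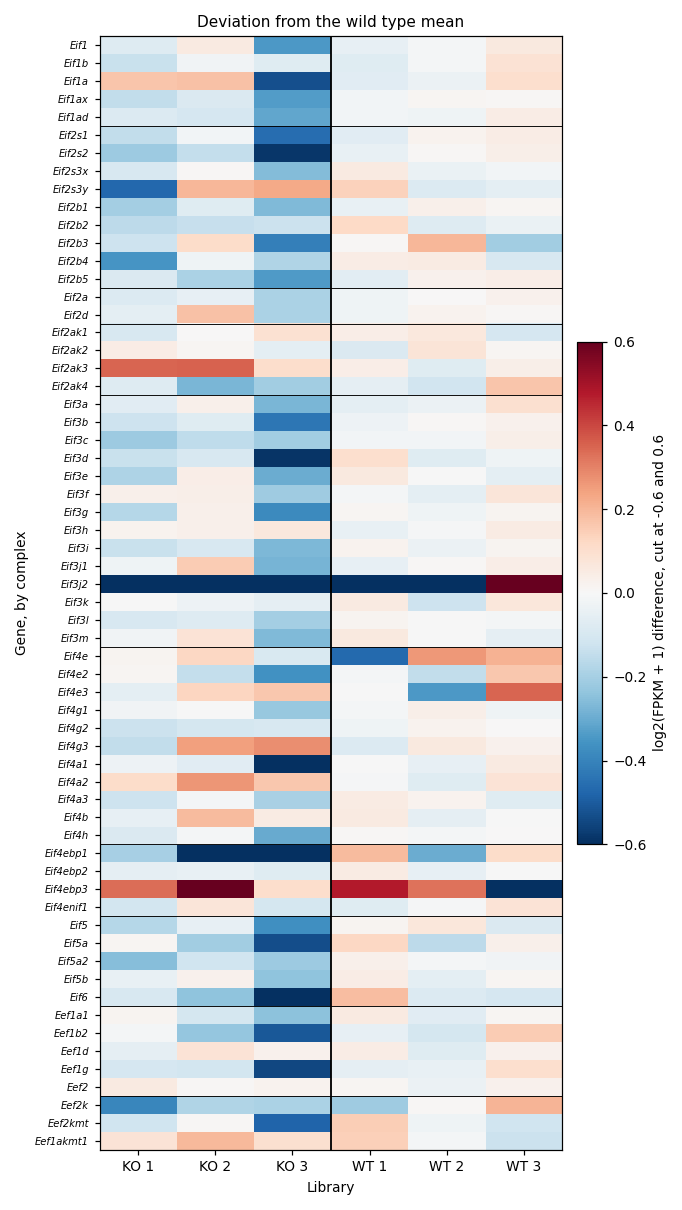
Difference of log2(FPKM + 1) from the wild type mean for each gene (rows, by complex) in each library (columns, knockout left of wild type), cut at -0.6 and 0.6. Knockout library 3 is the lowest of 6, ties counted, in 38 of 62 genes, and its median deviation is -0.23.

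**Figure D3:**
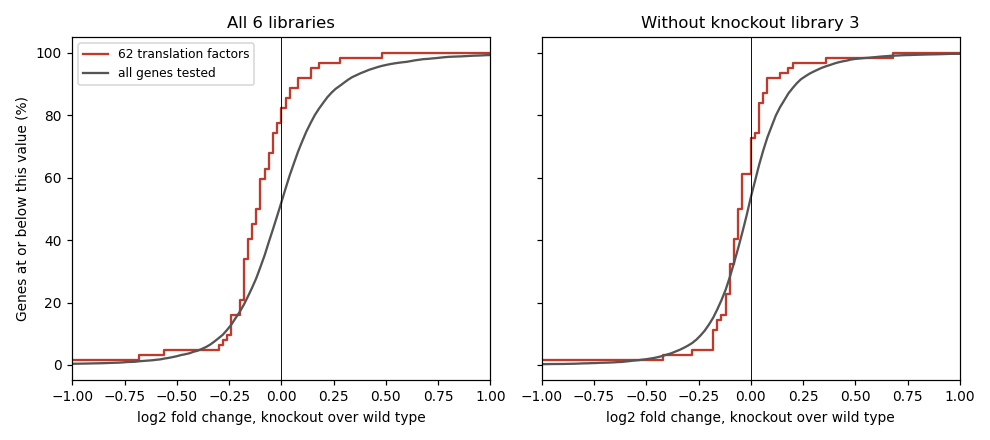
Cumulative share of genes (%) by log2 fold change of knockout over wild type, for the 62 genes (red) and all genes tested (grey), with all 6 libraries and without knockout library 3. At 0 the share of translation factors is 82.3% with all libraries and 72.6% without that library, against 52.1% and 53.6% of all genes.

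None of the factors that scan for the start codon or carry the initiator tRNA passed the test. All 5 genes of the eIF1 and eIF1A group had a fold change below 0 (median -0.12, range -0.19 to -0.06 on the log2 scale), and so had all 9 genes of eIF2 and its exchange factor eIF2B (median -0.18). Without knockout library 3 these were 4 of 5 (median -0.08) and 9 of 9 (median -0.14), and Eif2s3y, at -0.01 with all libraries, was above 0 in some alternatives. Eif2s2 (chromosome 2, 154871410 to 154892935), which encodes the beta subunit of eIF2, stood at 23.0, 24.2 and 17.6 FPKM in knockout libraries, against 26.0, 27.1 and 27.6 FPKM in wild type. The groups did not overlap, and knockout library 3 was lowest. Its log2 fold change was -0.32 ± 0.13 (SE; limma adjusted p = 0.592), or -0.18 without that library.

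The alpha subunit, which carries the serine that stress kinases modify, is encoded by Eif2s1. It stood at 30.8, 33.8 and 24.6 FPKM in knockout libraries, against 32.6, 34.7 and 35.3 FPKM in wild type, with overlap between the groups and a log2 fold change of -0.21, or -0.08 without knockout library 3. The gamma subunit has an X-linked and a Y-linked gene in mice. Eif2s3x averaged 39.0 ± 3.66 FPKM in knockout and 42.3 ± 1.51 FPKM in wild type (SD, n = 3 each), and Eif2s3y averaged 15.3 ± 4.07 FPKM in knockout and 15.1 ± 1.39 FPKM in wild type. The Y-linked copy supplied 28.0 ± 6.32% of the summed gamma level in knockout and 26.3 ± 1.08% in wild type. Other genes, first among them Gm2223, hold 35.6% of the 31-base runs in Eif2s3x transcripts. The Eif2s3x level and these percentages are uncertain to that extent.

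All 5 subunits of eIF2B, the GDP-GTP exchange factor that phosphorylated eIF2 inhibits, had fold changes below 0, between -0.20 and -0.14 on the log2 scale. Without knockout library 3 all 5 were still below 0, but Eif2b3, at -0.14 with all libraries, was then at -0.0081. Eif2b5, the catalytic subunit, stood at 23.7, 22.0 and 19.8 FPKM in knockout libraries, against 24.1, 25.7 and 26.0 FPKM in wild type. Eif2b1 stood at 12.2, 13.5 and 11.6 FPKM in knockout libraries, against 13.8, 14.6 and 14.3 FPKM in wild type. Neither overlapped between the genotypes, while Eif2b4, at 7.23, 9.34 and 8.29 FPKM in knockout and 9.87, 9.90 and 8.86 FPKM in wild type, did. Of the eIF2B genes 3 of 5 did not overlap, the third being Eif2b2, where 8.8% of all genes lay lower without overlap. Subunits of 1 complex are not independent of each other, so this count is a description. Limma adjusted p-values of the 5 lay between 0.598 and 0.796.

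In the eIF1 group, Eif1ax, which encodes the scanning factor eIF1A, stood at 22.6, 23.6 and 19.8 FPKM in knockout libraries, against 24.9, 25.4 and 25.3 FPKM in wild type. Eif1ad, a gene related to eIF1A, stood at 16.7, 16.5 and 14.1 FPKM in knockout libraries, against 17.6, 17.5 and 18.4 FPKM in wild type. Both groups of values stood clear of each other, with log2 fold changes of -0.19 ± 0.09 and -0.17 ± 0.10 (SE; limma adjusted p = 0.598 and 0.625). Without knockout library 3 the fold changes were -0.12 and -0.09. Eif1, which guards start codon choice, stood at 107, 118 and 89.2 FPKM in knockout and 109.8, 113 and 118 FPKM in wild type and overlapped. Eif1b, its close relative, averaged 41.6 ± 1.68 FPKM in knockout and 43.9 ± 2.52 FPKM in wild type. Eif1a turned on knockout library 3: its log2 fold change was -0.06 with all libraries and 0.17 without that library. The alternative initiator tRNA factors Eif2a and Eif2d had log2 fold changes of -0.11 and -0.02, and of -0.07 and 0.06 without that library.

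Among the 4 kinases that phosphorylate eIF2, 1 was higher in the knockout, the ER stress sensor. Eif2ak3 (chromosome 6, 70844515 to 70905245), which encodes PERK, stood at 9.87, 9.91 and 8.20 FPKM in knockout libraries, against 7.78, 7.13 and 7.75 FPKM in wild type. Every knockout value was above every wild type value, and the log2 fold change was 0.27 ± 0.10 (SE), 1.21-fold on that scale (limma adjusted p = 0.592). Knockout library 3 had the smallest of the 3 knockout values, and without it the log2 fold change was 0.35. Eif2ak3 was 1 of 2 members above wild type in every knockout library (3.23%, against 7.76% of all genes).

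The other 3 kinases did not stand apart. Eif2ak1, the haem-regulated kinase HRI, stood at 12.9, 13.9 and 14.9 FPKM in knockout libraries, against 14.3, 14.6 and 12.9 FPKM in wild type. Eif2ak2, the double-stranded RNA sensor PKR, stood at 9.68, 9.42 and 8.94 FPKM in knockout libraries, against 8.73, 9.91 and 9.41 FPKM in wild type. Both overlapped between genotypes, with 95% confidence intervals of the log2 fold change of -0.23 to 0.23 and -0.21 to 0.21. Eif2ak4, the amino acid sensor GCN2, had the lowest level of the 4, at 2.96, 2.47 and 2.62 FPKM in knockout and 3.04, 2.87 and 3.70 FPKM in wild type. Its values overlapped, with a log2 fold change of -0.19 ± 0.12 (SE; limma adjusted p = 0.642).

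The promoter of Eif2ak3 is shown because this kinase was the 1 eIF2 kinase without overlap between genotypes. The 250 bases before its annotated start (RefSeq, GRCm38.p6, chr6:70844265-70844514, plus strand) hold 6 copies of the CCAAT box, in capitals on either strand as CCAAT or ATTGG:
Eif2ak3: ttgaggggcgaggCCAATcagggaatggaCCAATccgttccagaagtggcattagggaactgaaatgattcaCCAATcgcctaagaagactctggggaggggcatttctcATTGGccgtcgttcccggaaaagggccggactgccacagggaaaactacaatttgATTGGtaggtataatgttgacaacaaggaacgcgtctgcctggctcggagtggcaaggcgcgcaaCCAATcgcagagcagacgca
As many as 6 copies in a window of 300 bases (250 before to 50 after a start) were found in 24 of 27025 genes, or 0.0888%. The full ER stress response element, ERSE, which contains the CCAAT box, was in no window of the 48 members that had one and in 0.174% of 9773 tested genes. A match is a run of letters and says nothing of what binds there.

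The subunits of eIF3 formed the largest complex, and 13 of its 14 genes had a fold change below 0, with a median of -0.14. Without knockout library 3 these were 10 of 14, with a median of -0.07. Eif3j2 is in both counts, though its sign was fixed by wild type library 3 alone. Eif3c (chromosome 7, 126546455 to 126566411), a core subunit, stood at 79.6, 83.3 and 80.2 FPKM in knockout libraries, against 91.6, 91.8 and 95.0 FPKM in wild type. Within each group the values lay close together, and the groups were clearly apart. The log2 fold change was -0.19 ± 0.08 (SE; limma adjusted p = 0.592), and it stayed at -0.19 without knockout library 3.

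Other eIF3 subunits without overlap owed more to knockout library 3. Eif3d encodes a subunit able to bind the cap of some mRNAs. It stood at 61.4, 62.9 and 44.5 FPKM in knockout libraries, against 72.3, 64.0 and 66.2 FPKM in wild type. Other genes hold 40.2% of the 31-base runs in Eif3d transcripts, and its level is uncertain to that extent. Eif3b, a scaffold subunit, stood at 71.2, 73.8 and 57.2 FPKM in knockout libraries, against 76.0, 77.9 and 79.0 FPKM in wild type. Eif3i, which binds Eif3b's product, stood at 28.7, 29.5 and 26.1 FPKM in knockout libraries, against 32.1, 30.8 and 32.0 FPKM in wild type. In each of these, knockout library 3 was the lowest, and log2 fold changes of -0.27, -0.21 and -0.17 with all libraries became -0.12, -0.10 and -0.12 without it (limma adjusted p between 0.601 and 0.616 with all libraries). Eif3l, the fifth without overlap, had a log2 fold change of -0.13. Over all genes 8.8% lay lower without overlap. Eif3h was the 1 subunit with a fold change above 0, at 108 ± 1.74 FPKM in knockout and 105 ± 3.41 FPKM in wild type (SD, n = 3 each).

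Eif3j2 is a special case among the 62. It was listed at 0 in all 3 knockout libraries and in wild type libraries 1 and 2, and at 8.19 FPKM in wild type library 3. Eif3j2 passed the filter on low values through that library alone, which fixed its fold change below 0. Its transcripts share 93.95% of their 31-base words with Eif3j1, while 38.06% of the words of Eif3j1 occur in Eif3j2. Reads of Eif3j2 can thus hardly be told from those of Eif3j1, and a listed 0 may be an estimate and not an absence. The summed level of both was 19.9, 22.6 and 16.5 FPKM in knockout libraries, against 19.6, 20.4 and 29.0 FPKM in wild type. Only wild type library 3 had a share assigned to Eif3j2, 28.2%. The gene was named here after its values were seen.

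The cap-binding machinery split, with 6 of 11 genes below 0 and 5 above. The helicase genes Eif4a1 and Eif4a2 encode closely related eIF4A proteins, and their values went in opposite directions. Eif4a2 (chromosome 16, 23107444 to 23114136) stood at 34.7, 38.8 and 36.1 FPKM in knockout libraries, against 32.0, 30.5 and 34.0 FPKM in wild type. Eif4a1 (chromosome 11, 69666936 to 69672423) stood at 72.0, 70.1 and 43.2 FPKM in knockout libraries, against 73.5, 71.0 and 76.3 FPKM in wild type. Eif4a2 lay above wild type in every knockout library, by a log2 fold change of 0.18 ± 0.09 (SE; limma adjusted p = 0.598), and by 0.19 without knockout library 3. Eif4a1 overlapped, and its fold change of -0.28 ± 0.20 (SE) became -0.05 without that library (limma adjusted p = 0.669 with all libraries).

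As a share of both helicase genes, Eif4a2 made up 32.5, 35.7 and 45.5% in knockout libraries, against 30.4, 30.1 and 30.9% in wild type. The wild type shares spread by an SD of 0.404 percentage points, and the knockout shares by 6.78, with library 3 highest. Every knockout share was above every wild type share. Among the paralog families compared here, this was the only one without overlap of shares. How often such shares stand clear over the whole table was not computed. No p is given for the Eif4a2 share, since an exact permutation test of 3 against 3 cannot go below a two-sided 0.1. Of the 31-base words in Eif4a1 transcripts 31.1% also occur in other genes, and of those in Eif4a2 19.6%, with pseudogenes among them, and Eif4a2 overlaps the coding gene Rfc4 on the opposite strand. Over all members, 14 have exons that overlap those of another coding gene and 14 share at least 20% of their words with other genes, and the sources used here do not say whether counting used strand. Eif4a3, which serves in the exon junction complex, averaged 31.2 ± 2.09 FPKM in knockout and 33.8 ± 1.53 FPKM in wild type.

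Eif4e, the cap-binding protein itself, stood at 18.4, 19.8 and 16.9 FPKM in knockout libraries, against 12.8, 21.9 and 21.1 FPKM in wild type. The spread within wild type exceeded any difference, and the 95% confidence interval of the log2 fold change ran from -0.47 to 0.50. Eif4g1, the main scaffold, stood at 68.1, 68.9 and 58.8 FPKM in knockout libraries, against 68.5, 70.8 and 67.8 FPKM in wild type and overlapped. Eif4g2, a relative that lacks the eIF4E-binding site and serves cap-independent initiation, stood at 92.8, 94.2 and 94.8 FPKM in knockout libraries, against 99.8, 103 and 102 FPKM in wild type. Its groups were separate with a small log2 fold change of -0.11 ± 0.08 (SE; limma adjusted p = 0.665). Eif4g2 was the most abundant of the 3 scaffold genes in every library, and Eif4g3, at 16.1 ± 2.66 FPKM in knockout and 14.5 ± 0.793 FPKM in wild type, the least.

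The largest fitted difference among members other than Eif3j2 was that of Eif4ebp1, which encodes the mTORC1-controlled repressor 4E-BP1. Eif4ebp1 (chromosome 8, 27260329 to 27276674) stood at 23.5, 16.8 and 11.2 FPKM in knockout libraries, against 31.1, 21.9 and 29.3 FPKM in wild type. All 3 knockout values lay below wild type libraries 1 and 3, but knockout library 1 was above wild type library 2, so the groups overlapped. The log2 fold change was -0.69 ± 0.26 (SE; limma adjusted p = 0.592), and -0.43 without knockout library 3. Eif4ebp2, the second repressor, overlapped at 38.5, 38.7 and 38.0 FPKM in knockout and 41.5, 38.6 and 39.9 FPKM in wild type. The share of Eif4ebp1 in the summed level of Eif4ebp1, Eif4ebp2 and Eif4ebp3 was 26.4 ± 6.93% in knockout and 37.2 ± 4.35% in wild type (SD, n = 3 each), with overlap between libraries. Eif4ebp3 shares 66.4% of its 31-base words with the coding gene AC115631.1 on the same strand, so its 7.15, 11.8 and 5.95 FPKM in knockout and 7.98, 7.08 and 2.71 FPKM in wild type are uncertain.

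**Figure D4:**
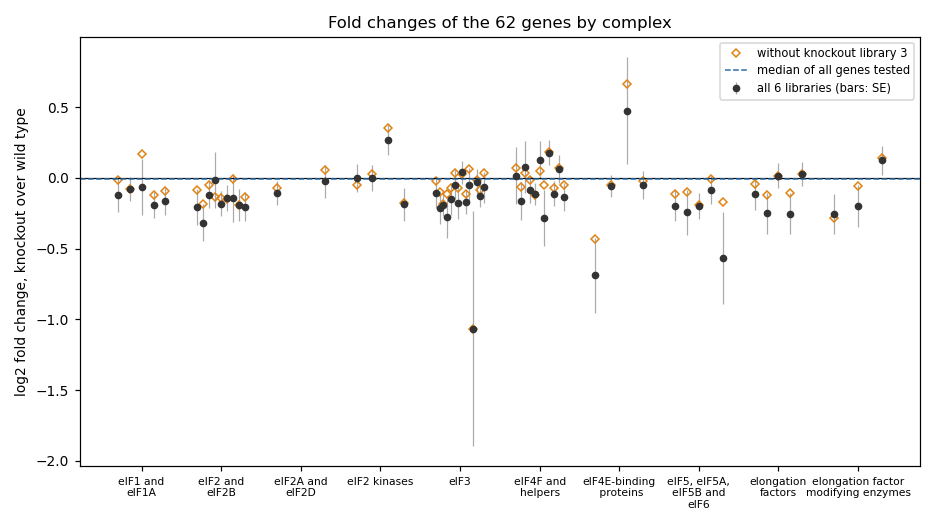
log2 fold change of knockout over wild type for each of the 62 genes by complex, with SE bars, and the same without knockout library 3 (open diamonds); the dashed line is the median of all genes tested, -0.01. The point at -1.07 is Eif3j2, and most points of the initiation complexes move towards 0 when the library is left out.

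Eif5, Eif5a, Eif5a2, Eif5b and Eif6, which act late in initiation, in elongation or on the large subunit, had fold changes below 0, with a median of -0.20 (-0.11 without knockout library 3), and none passed the test. Eif6 (chromosome 2, 155819832 to 155826925), whose product keeps large subunits from joining small ones, stood at 62.6, 56.6 and 25.5 FPKM in knockout libraries, against 76.3, 63.1 and 62.3 FPKM in wild type. Knockout library 3 was far below all others, knockout library 1 lay just above wild type library 3, and the log2 fold change of -0.56 ± 0.33 (SE; limma adjusted p = 0.625) became -0.17 without it. Eif5, the GTPase activator of eIF2, stood at 90.6, 98.6 and 78.9 FPKM in knockout libraries, against 103, 107 and 96.1 FPKM in wild type and overlapped.

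Eif5a encodes a factor that carries the amino acid hypusine and helps ribosomes past runs of proline. It stood at 184, 158 and 126 FPKM in knockout libraries, against 199, 163 and 187 FPKM in wild type. These values overlapped (log2 fold change -0.24 ± 0.16, SE; limma adjusted p = 0.654), and the fold change was -0.10 without knockout library 3. Its paralog Eif5a2 was rare, at 2.41, 2.74 and 2.49 FPKM in knockout libraries, against 3.16, 3.03 and 3.02 FPKM in wild type. Here the groups did not overlap, with a log2 fold change of -0.20 ± 0.09 (SE; limma adjusted p = 0.595) that changed little, to -0.19, without knockout library 3. Eif5a2 made up 1.65 ± 0.328% of the summed level of both in knockout and 1.66 ± 0.141% in wild type, and the shares overlapped.

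Among the 5 elongation factors, 3 had a fold change below 0 and 2 above, with a median of -0.11, and of -0.05 without knockout library 3. Eef2 stood at 494, 477 and 481 FPKM in knockout libraries, against 479, 463 and 483 FPKM in wild type, and the 95% confidence interval of its log2 fold change ran from -0.18 to 0.23, with overlap between the groups. Eef1a1 stood at 1034, 949 and 862 FPKM in knockout libraries, against 1061, 976 and 1032 FPKM in wild type and overlapped (log2 fold change -0.11 ± 0.11, SE; limma adjusted p = 0.747), and the fold change was -0.05 without knockout library 3 and turned to 0.15 under quantile normalization. Eef1g (chromosome 19, 8967041 to 8978479), the scaffold of eEF1B, stood at 162, 161 and 119 FPKM in knockout libraries, against 167, 169 and 186 FPKM in wild type. It was the 1 elongation factor of 5 without overlap, where 8.8% of all genes lay lower without overlap. Knockout libraries 1 and 2 lay close to wild type, and the log2 fold change of -0.25 ± 0.14 (SE; limma adjusted p = 0.624) became -0.10 without knockout library 3.

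Eef1b2, an exchange subunit, stood at 84.4, 72.4 and 59.6 FPKM in knockout libraries, against 82.3, 79.2 and 94.9 FPKM in wild type, a log2 fold change of -0.25, or -0.12 without knockout library 3. Eef1d, the other exchange subunit, averaged 11.1 ± 0.555 FPKM in knockout and 10.9 ± 0.533 FPKM in wild type. Both overlapped. Levels within the complex were unequal: the FPKM of Eef1g over that of Eef1d was 10.7 to 15.5 in knockout libraries and 14.8 to 16.7 in wild type. Other genes, first among them the processed pseudogenes Gm13456 and Gm4366, hold 51.5% of the 31-base words of Eef1a1 and 47.6% of those of Eef1g, and both levels are uncertain to that extent.

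Of the enzymes that modify elongation factors, Eef2k stood at 1.09, 1.42 and 1.41 FPKM in knockout libraries, against 1.36, 1.76 and 2.17 FPKM in wild type. The methyltransferase gene Eef2kmt, whose product acts on eEF2, stood at 11.3, 12.4 and 8.57 FPKM in knockout libraries, against 13.8, 12.1 and 11.3 FPKM in wild type. Eef1akmt1, for a methyltransferase of eEF1A, stood at 15.6, 17.0 and 15.8 FPKM in knockout libraries, against 16.4, 14.6 and 13.3 FPKM in wild type. All 3 overlapped between genotypes, with log2 fold changes of -0.25 ± 0.14, -0.20 ± 0.15 and 0.12 ± 0.10 (SE; limma adjusted p between 0.620 and 0.706). Without knockout library 3 the first was -0.29 and the second -0.06.

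**Figure D5:**
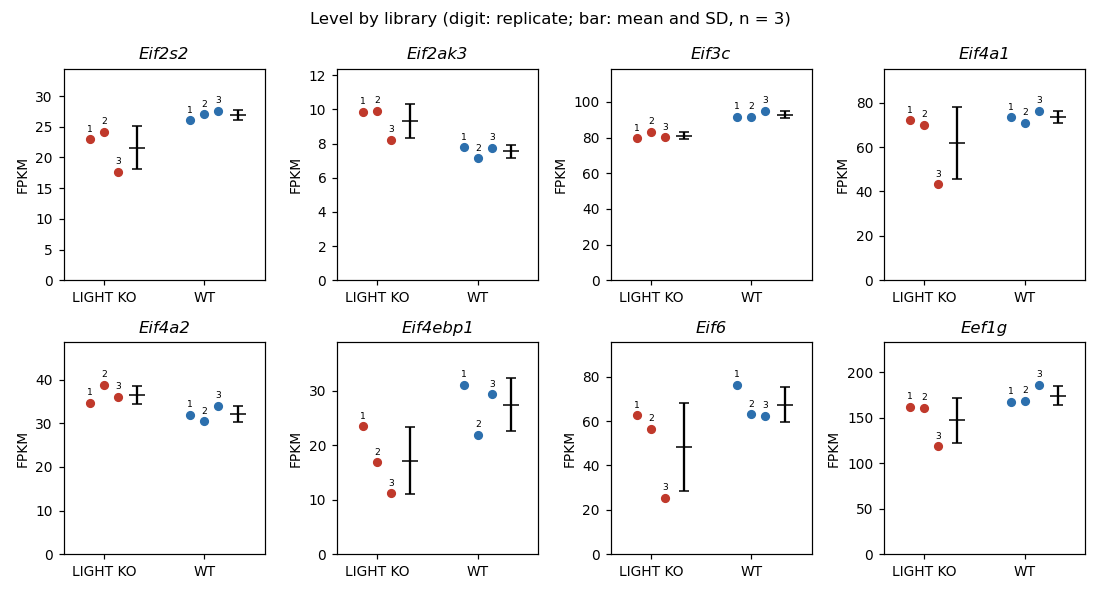
FPKM of 8 genes in each library (digit: replicate), with mean and SD (n = 3) and knockout left of wild type. Eif2ak3 and Eif4a2 lie above wild type in every knockout library, Eif2s2, Eif3c and Eef1g lie below, and in Eif4a1 and Eif6 knockout library 3 is far below the other 5 libraries.

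Many mRNAs of the translation machinery begin with a 5' terminal oligopyrimidine tract (TOP), a C at the cap followed by a run of C or T through which mTORC1 controls their translation. Of the members, 10 are known as such transcripts: Eef1a1, Eef1b2, Eef1d, Eef1g, Eef2, Eif3a, Eif3e, Eif3f, Eif3h and Eif4b. Their directions were mixed: 6 had a log2 fold change below 0 and 4 above, with a median of -0.08, or -0.0032 without knockout library 3. The median of the other 52 was -0.13, and -0.07 without it. The annotated starts of the 6 that have a RefSeq window are shown, 15 bases on each side, with the first transcribed base and any unbroken run of C or T from it in capitals:
Eef1a1: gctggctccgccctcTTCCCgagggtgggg
Eef1b2: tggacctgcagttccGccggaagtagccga
Eef2: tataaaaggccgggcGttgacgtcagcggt
Eif3a: cggggctcgggcggcGgcgctgccgccgcg
Eif3f: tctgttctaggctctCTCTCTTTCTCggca
Eif4b: ggtcttcccgtcggaCgccgcgccaccccc
These lie at chr9:78481710-78481739 (minus strand), chr1:63176816-63176845, chr10:81176616-81176645, chr19:60790679-60790708 (minus strand), chr7:108934400-108934429 and chr15:102073758-102073787 in GRCm38.p6, on the plus strand unless stated. Of these 6, only Eif3f shows a C followed by at least 4 pyrimidines at the annotated base, as do 2.96% of tested genes. Over the 48 members with a window there were 2 (4.17%), the other being Eif2s3x. Annotated starts can lie some bases away from the start used in a tissue. In Eef1a1 an unbroken pyrimidine run begins before the annotated base and goes on past it. The windows of Eef1b2, Eef2, Eif3a and Eif4b do not settle whether those mRNAs carry the tract. Eif3f, with the textbook tract, averaged 47.2 ± 4.59 FPKM in knockout and 48.7 ± 2.31 FPKM in wild type (SD, n = 3 each).

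Promoters of the members were searched for short motifs on both strands, and 48 of 62 genes had a RefSeq window of 300 bases. The ETS-type motif CCGGAAG, typical of housekeeping promoters, was in 17 of the 48 (35.4%), against 19.4% of 9773 tested genes and 9.93% of all 27025 genes with a window. The E-box CACGTG, bound by MYC and clock factors among others, was in 12 (25.0%), against 11.7% of tested genes. The CCAAT box was in 15 of the 48, against 42.4% of tested genes. The cyclic AMP element TGACGTCA was in Eef2 alone, against 3.44% of tested genes, and the amino acid response motif TGATGNAAN was in Eef2k and Eif2s3x, against 2.62%. No motif of this set contains another except that the ER stress element contains the CCAAT box. Genes with several annotated starts had several windows, and a match in any of them counted.

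Of the 15 members that lay below wild type without overlap, 12 had a window, a split made on the measured values that is given without a test. The ETS-type motif was in 7 of these 12 (58.3%) and in 10 of the other 36 members (27.8%), the E-box in 1 (8.33%) and 11 (30.6%), and the CCAAT box in 4 (33.3%) and 11 (30.6%). These counts are small and are a description of the members only. The share with the ETS-type motif among all genes that lay lower without overlap was not computed. Over tested genes it was 19.4%. The 10 other members with the motif are not printed below. To show how the ETS-type motif sits in such promoters, the match nearest the start in each of the 7 is given in capitals within 30 bases, reading CCGGAAG or, on the other strand, CTTCCGG:
Eif1ad: ctccagcggccCTTCCGGtctgtgggatcg
Eif1ax: cctcccgccccCTTCCGGacgccggaggcc
Eif2b2: cctctctcggcCCGGAAGtgaaacagtgct
Eif3c: aaccttttcctCTTCCGGcgtcgtgcctgt
Eif3d: gctgtgacacaCTTCCGGttgtgtctcact
Eif3l: gctgggcgggaCTTCCGGtccggccaagca
Eif5a2: cggggcctatcCCGGAAGtgtggtcgcggc
In Eif3c, Eif3l and Eif5a2 the motif begins 34, 35 and 36 bases before the annotated start, and in Eif3d 70 bases before it. In Eif1ax it lies 212 bases before, and in Eif2b2 and Eif1ad it begins at transcribed bases 17 and 22. The windows are chr19:5366823-5366852, chrX:159371955-159371984, chr12:85219486-85219515, chr7:126566382-126566411, chr15:77970876-77970905, chr15:79075177-79075206 and chr3:28781230-28781259 in that order of genes (GRCm38.p6), with Eif3c and Eif3d on the minus strand.

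A list of 34 regulators and partners of these factors was set beside them, covering eIF2 phosphatases, eIF4E kinases, poly(A)-binding proteins, the mTORC1 pathway, hypusine enzymes and termination factors. None passed the limma test over all genes, with 22 lower (64.7%, against 52.1% of all genes) and 12 higher (median log2 fold change -0.04, smallest limma adjusted p 0.592). Without knockout library 3 these were 23 lower and 11 higher. The 3 knockout values lay below wild type without overlap in 7 (20.6%, against 8.8% of all genes) and above in 2 (5.88%, against 7.76%). Dnajc3 encodes an ER co-chaperone that inhibits PERK. It stood at 49.4, 53.6 and 69.8 FPKM in knockout libraries, against 42.2, 44.2 and 42.0 FPKM in wild type. Like Eif2ak3 it was above wild type in every knockout library. Knockout library 3 had its highest value, whereas that library had the lowest knockout value of Eif2ak3. Pabpc4, a poly(A)-binding protein, stood at 18.4, 19.2 and 14.6 FPKM in knockout libraries, against 22.3, 19.9 and 23.6 FPKM in wild type. Rps6, the ribosomal protein that S6 kinase phosphorylates, stood at 269, 259.9 and 219.8 FPKM in knockout libraries, against 291, 283 and 307 FPKM in wild type. Paip2b, which restrains poly(A)-binding protein, stood at 3.00, 4.06 and 4.21 FPKM in knockout libraries, against 2.49, 2.72 and 3.11 FPKM in wild type and overlapped. Log2 fold changes of Dnajc3, Pabpc4, Rps6 and Paip2b were 0.40, -0.32, -0.24 and 0.33 with all libraries. Without knockout library 3 they were 0.26, -0.21, -0.15 and 0.26. Mtor itself had a log2 fold change of 0.0013 ± 0.10 (SE; limma adjusted p = 0.998).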

How the data were processed

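RNA from whole kidney was sequenced by the authors, who deposited FPKM values per gene for 6 libraries. The submitters' processing notes name FastQC, HISAT2, StringTie and mm10, with no versions. The sources used here do not name the annotation, the strand setting or the read totals, so depth is unknown and FPKM carries no counting interval. Per-sample values and the joint table differed in 0 values, and the table held 0 columns of no listed sample.

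From the deposited FPKM, log2(FPKM + 1) values were computed for genes averaging at least 0.5 FPKM over the 6 libraries (12836 kept, 190 removed). Genotypes were compared with limma 3.58.1 (mean-variance trend, empirical Bayes, two-sided) in R 4.3.3, with no covariate, and p-values were adjusted by Benjamini-Hochberg over all genes kept; the threshold was 0.05. The script was tested on simulated data. A call of no overlap means that all 3 values of a genotype lay on one side of all 3 of the other. Shared words are 31-base runs of a gene's transcripts also found in another gene (GENCODE M21 annotation, GRCm38), and promoter windows come from RefSeq (GRCm38.p6). Genes named with values in every library were up to 4 per complex with the smallest unadjusted p, and a set of pathway genes named at the outset whatever their values. The members, lists and rules were chosen with earlier results of these data known. Alternatives were other pseudocounts, filters, scalings, limma settings, a replicate block and leaving out each library.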

Additional observations from a re-analysis of the deposited data

How the results depend on the processing

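No member passed an adjusted limma p of 0.05 under any alternative. The lowest adjusted limma p of a member was 0.0895, with library weights that gave less influence to discordant libraries, where 52 genes of the table passed. With these weights 40 members lay lower and 22 higher, where 45.1% of all genes lay lower. The medians were -0.034 for all members, -0.038 for initiation factors and -0.020 for eIF2 kinases, against 0.020 over all genes. The 4 members at an unadjusted limma p under 0.05 became 2 under median-of-ratios scaling and without the trend, 5 under quantile normalization and 6 with library weights. Shares of all genes at this threshold were not computed for the alternatives, so such counts cannot be set against the table. The labels do not say whether replicate numbers pair the libraries. Same-numbered libraries had correlations of 0.146, -0.133 and -0.0193 in their deviations from group means, where other pairs had -0.144 to 0.180. Deviations from a mean of 3 libraries sum to 0 and are tied to each other, so these values cannot settle it. With the replicate block 1 member was at an unadjusted limma p under 0.05 and 0 genes of the table passed. Under quantile normalization the median of elongation factors was 0.024.

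Leaving out each library gave 0 to 5 members at an unadjusted limma p under 0.05. It gave 18 to 31 members without overlap, against 17 with all libraries, since fewer values overlap less. Without knockout library 3 the 18 were 15 lower and 3 higher, against 12.7% and 11.2% of all genes. For the other libraries left out the share of all genes without overlap was not computed. Nor was the share at an unadjusted p under 0.05, so those counts cannot be set against the table. Medians ran from -0.17 to -0.06 for all members, from -0.18 to -0.07 for initiation factors, from -0.18 to -0.05 for elongation factors and from -0.023 to 0.035 for eIF2 kinases. Of the other results, these changed sign. Eif2ak1 was at 0.0083, 0.0078 and 0.017 under median-of-ratios, upper-quartile and quantile scaling, and Eif2ak2 at 0.0079 and 0.0073 under median-of-ratios and upper-quartile scaling. Eif2s3y was at 0.0046 and Eef1a1 at 0.15 under quantile normalization. With library weights Eif1 was at 0.031, Eif1a at 0.17, Eif2s3y at 0.13, Eif2d at 0.13, Eif3a at 0.024, Eif3f at 0.049, Eif3j1 at 0.11, Eif3k at 0.011, Eif3m at 0.049, Eif4enif1 at 0.054 and Eif5b at 0.021. Across single libraries left out, log2 fold changes ran from -0.020 to 0.053 for Eef1d, from -0.18 to 0.17 for Eif1a, from -0.051 to 0.048 for Eif2ak1, from -0.044 to 0.038 for Eif2ak2, from -0.12 to 0.060 for Eif2d and from -0.13 to 0.21 for Eif2s3y. They ran from -0.092 to 0.033 for Eif3f, from -0.15 to 0.064 for Eif3j1, from -0.090 to 0.0047 for Eif3k, from -0.14 to 0.032 for Eif3m, from -0.22 to 0.15 for Eif4e and from -0.10 to 0.25 for Eif4e3. Apart from the libraries left out, the cause of these changes was not tested.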
